A study of Schizosaccharomyces pombe with 16 samples.

Results

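Fission yeast cells that lack Scr1 and grow in glucose were compared with wild-type cells that have run out of it, to see which genes of the starvation response stay off when only the repressor is missing. The comparison used 6 of the 16 RNA-seq libraries of the series. 4 libraries came from scr1- cells held in rich medium (YES) with 3% glucose, and the 2 others came from wild-type (h-) cells held in YES with 3% glycerol and no glucose. Among the scr1- libraries, 2 were labelled as the disruption (h-, scr1::ura4+, with the further alleles ade6-m216, leu1-32 and ura4-d18) and 2 were from deletions (scr1::kanMX6+). The 2 libraries of wild type (h-) in 3% glucose served as the second reference, and they tell a starvation gene from one that is always high. All cells were first grown for 4 h in 3% glucose, washed, and moved for another 4 h to the medium under test, at 32 °C. The starved wild type therefore differed from the mutants in genotype and in carbon source together, and the auxotrophic markers of the disruption add a further difference. The study describes 2 independent biological replicates, and p-values measure only the spread between these libraries. The study's library list names other strains than the labels do for some libraries, among them an h+ strain for disruption replicate 2 and for starved replicate 1. It also departs from the labels, which give h-, for glucose-grown wild type replicate 2 and deletion replicate 1. In that list the replicates of each group are different strains: D59 and D60 (disruption), D163 and D165 (deletion), Y46 and Y44 (starved), Y44 and Y46 (wild type in glucose). It prepared the libraries in 3 batches, called A, B and C. Batch A was unstranded and held disruption replicate 1, batch B was stranded and held disruption replicate 2 and starved replicate 1, and batch C was stranded and held both deletions and starved replicate 2.

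Carbon catabolite repression keeps genes for poorer carbon sources silent while glucose lasts. Scr1 is the zinc finger repressor of this system in fission yeast, a relative of Mig1 of budding yeast, and it leaves the nucleus once the AMP-activated kinase has phosphorylated it in low glucose. Many of its promoters also take up activators, such as the zinc finger protein Rst2, which is held in check by the cAMP and protein kinase A pathway for as long as glucose is sensed, and the bZIP pair Atf1 and Pcr1 of the stress-activated Sty1 pathway. Loss of Scr1 in glucose removes the repressor while glucose itself is still present. Whether signalling through cAMP and protein kinase A was unchanged in the mutants was not tested.

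The 6 libraries held between 14305848 and 17125107 counts, and values are given as CPM, counts scaled to a common library size by the trimmed mean of M-values (TMM). Mutant values run in the order disruption replicates 1 and 2, then deletion replicates 1 and 2. The scr1 feature (SPBC1D7.02c, chrII:1752100-1755619) had 125.1, 123.4, 89.6 and 101.9 CPM in the scr1- libraries, against 136.4 and 65.6 CPM in starved wild type and 33.1 and 20.8 CPM in glucose-grown wild type. That feature is 3520 bases long, of which 1822 lie outside the annotated coding sequence, so its counts do not check the labels. Among the genes of M cells, the mating type called h-, the pheromone precursor gene mfm2 stood at 175, 4.1, 271 and 230.3 CPM in the mutants, against 6.7 and 6.22 CPM in starved wild type. Summed over 6 M-cell genes, the mutants had 358.8, 71.5, 551 and 474.2 CPM, against 65.9 and 56.6 CPM in starved wild type, and the 2 P-cell genes map2 and map3 summed to 176, 59.9, 16 and 16 CPM, against 20.5 and 8.41 CPM. Disruption replicate 2 was thus low for M-cell genes that the other mutants expressed, whereas its label gives h-, and the part of mating type in the results was not tested. The counts below are given without it where it matters, and in these bulk libraries fewer cells of a type and less RNA per cell cannot be told apart.

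A gene was called when its adjusted p was under 0.05 in edgeR's quasi-likelihood test and its log2 fold change was past 1. Between the scr1- cells in glucose and starved wild type, 1118 protein-coding genes were called higher (21.8% of the 5134 tested) and 879 were called lower (17.1%). Between the same mutants and wild type in glucose, 62 genes were called higher (1.21%) and 5 were called lower (0.0974%). Starvation alone had 917 genes called higher than in glucose-grown wild type (17.9%) and 1090 called lower (21.2%). These 3 comparisons share libraries, so their values are set side by side here without a test of their likeness. The split between directions rested on the scaling and on 1 library. It was 957 higher and 993 lower with the size factors of DESeq2, 1317 and 746 with library totals, and 819 and 1119 without disruption replicate 2. The median log2 fold change over all protein-coding genes was 0.13 under TMM, 0.01 under the size factors and 0.27 under library totals, and the group medians below are to be read against that shift. Counts of called genes in the groups below are likewise to be read beside the shares over all tested genes given above.

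The 917 genes that rose in starved wild type were sorted by what they did in the mutants. 622 of them (67.8%) stayed off, meaning that they were called lower in the mutants than in starved cells and that the upper 95% bound of the mutants over glucose-grown wild type lay under 1 on the log2 scale. This bound lay under 1 for 90.2% of all tested protein-coding genes. Staying off here means no rise over glucose past that bound, and a gene so classed can be well expressed in glucose. A further 153 (16.7%) were called lower than in starved cells but had wider bounds. 46 genes (5.02%) were raised, that is, called higher in the mutants than in glucose-grown wild type. Of these, 26 remained called lower than in starved cells, 18 were not called against them, and 2 were called higher. The last 96 genes (10.5%) met none of these criteria. The starvation rise had a median log2 fold change of 1.72 for the genes that stayed off and 3.34 for the 153 with wider bounds. It was 4.76 for the 26 raised genes below the starved level. Those 26 had to lie above glucose and below starvation, which by itself forces a rise larger than the threshold. The medians therefore follow in part from the criteria and were not compared. Without disruption replicate 2 the number of starvation genes was 1122, of which 811 stayed off and 44 were raised. The number of raised genes was 29 without the batch term, 22 with the stranded libraries alone and 36 with the replicate number in place of batch.

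**Figure D1:**
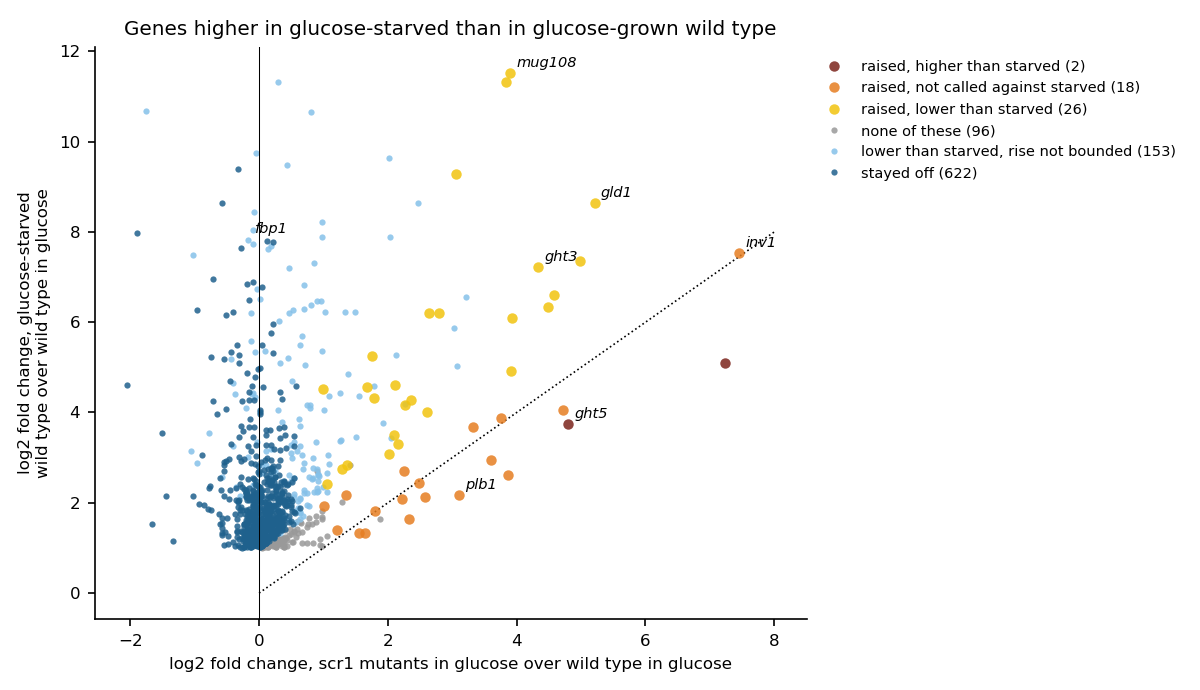
Each point is 1 of the 917 starvation genes, with its log2 fold change in scr1- cells over wild type in glucose on the x axis and its log2 fold change in starved over glucose-grown wild type on the y axis, coloured by class, with a dotted line where both are equal. The 622 genes that stayed off lie around 0 on the x axis or to its left at every height, and the 46 raised genes lie to the right, among them inv1 at 7.45 and ght5 at 4.80.

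The genes that stayed off included some of the most strongly induced of the starvation response. atf21 (SPBC2F12.09c), which encodes a bZIP transcription factor, had 13.8, 0.288, 0.459 and 0.347 CPM in the mutants, against 358.8 and 436.2 CPM in starved wild type. Only the mutant of the unstranded batch was above 1 CPM, and glucose-grown wild type had 15.6 CPM in that same batch and 0.459 CPM in the stranded one. The log2 fold change against starved cells was -9.73 ± 0.37 (SE, adjusted p = 6.22e-09), and its feature shares 2220 bases with SPNCRNA.1457 on the opposite strand. cta3 (SPBC839.06, chrII:607214-611989, plus strand), a cation-transporting P-type ATPase, had 18.6, 11.5, 9.3 and 6.94 CPM in the mutants, against 1517 and 1898 CPM in starved wild type. Its mutant values spanned those of wild type in glucose, 18.3 and 6.94 CPM, and its log2 fold change against starved cells was -7.55 ± 0.21 (SE, adjusted p = 1.02e-09).

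Several of the strongest cases lie side by side near one end of chromosome I. They include pcm2, a protein methyltransferase gene (SPAC869.08, chrI:5497918-5499280), mel1, which encodes a secreted alpha-galactosidase (SPAC869.07c, chrI:5499768-5501236), and hry1 (SPAC869.06c, chrI:5502560-5503291). mel1 had 0.412, 0.144, 0.393 and 1.18 CPM in the mutants, against 47.9 and 118.8 CPM in starved wild type. pcm2 had 1.0, 0.576, 1.64 and 3.19 CPM in the mutants, against 213.3 and 491.1 CPM in starved wild type. hry1 had 0.235, 1.08, 0.655 and 0.417 CPM in the mutants, against 133.9 and 1515 CPM in starved wild type. For all 3 genes every scr1- library was far below both starved libraries. Their neighbour SPAC869.09 had 0.53, 1.22, 2.23 and 2.29 CPM in the mutants, against 1792 and 5901 CPM in starved wild type, a log2 fold change of -11.01 ± 0.47 (SE, adjusted p = 9.14e-09). hry1 and SPAC869.09 fell outside the stayed-off class because the upper bounds of the mutants over glucose-grown wild type lay above 1, with intervals from -2.91 to 4.53 and from -1.14 to 1.74.

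fbp1 (SPBC1198.14c, chrII:197660-199474, minus strand) encodes fructose-1,6-bisphosphatase, the enzyme that commits carbon to gluconeogenesis. It stood at 12.2, 5.32, 7.99 and 4.03 CPM in the scr1- cells, against 1407 and 1798 CPM in starved wild type and 12.4 and 4.13 CPM in glucose-grown wild type. No mutant library overlapped a starved one, and the mutants spanned the same range as wild type in glucose. The log2 fold change was -8.00 ± 0.62 against starved cells (SE, adjusted p = 5.98e-07) and -0.17 over wild type in glucose (95% interval -1.5 to 1.17). That upper bound missed the criterion of the stayed-off class. ctt1, the catalase gene, had 48.5, 41.6, 61.1 and 49.5 CPM in the mutants, against 2592 and 3670 CPM in starved wild type, and gpd1, a glycerol-3-phosphate dehydrogenase gene, had 867.1, 870.1, 910 and 1076 CPM in the mutants, against 14474 and 7083 CPM. Both met the criteria for having stayed off, although gpd1 was not silent in glucose-grown wild type, at 944.7 and 1684 CPM.

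**Figure D2:**
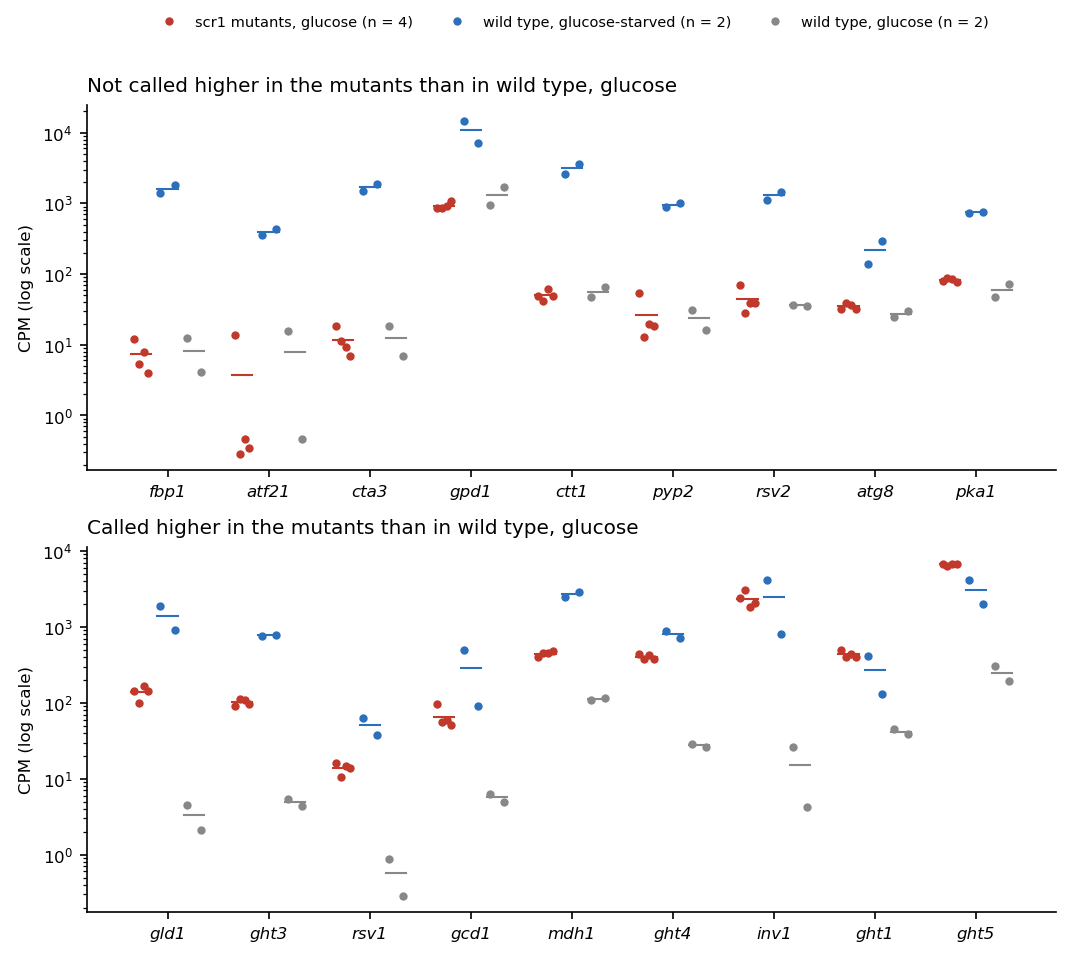
CPM on a log axis in each scr1- library in glucose (n = 4), each starved wild-type library (n = 2) and each glucose-grown wild-type library (n = 2), with short lines at the group means, for 9 starvation genes not called higher in the mutants than in glucose-grown wild type (top) and 9 that were (bottom). In the top panel the mutants lie at the level of wild type in glucose, as for cta3 with 6.94 to 18.6 CPM, whereas in the bottom panel they leave it and stop below, at or above the starved level, as for gld1, inv1 and ght5.

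The raised gene with the highest rise over glucose-grown wild type was inv1. The gene (SPCC191.11, chrIII:1723393-1726164, plus strand) encodes the secreted invertase that splits sucrose and had 2388, 3024, 1834 and 2042 CPM in the mutants, against 4204 and 798.7 CPM in starved wild type and 26.2 and 4.3 CPM in glucose-grown wild type. The mutants lay between the starved libraries, and far above those grown in glucose. Its log2 fold change was -0.08 against starved cells (95% interval -1.6 to 1.44) and 7.45 over glucose-grown wild type (adjusted p = 0.00117). ght5 (SPCC1235.14, chrIII:212160-214376, plus strand), the high-affinity glucose transporter, had 6718, 6265, 6819 and 6841 CPM in the mutants, against 4140 and 2030 CPM in starved wild type and 302.4 and 194.3 CPM in glucose-grown wild type. All mutants were above both starved libraries, with a log2 fold change of 1.06 ± 0.29 (SE, adjusted p = 0.00622). That call did not survive several alternatives, for example 0.94 with DESeq2's size factors, 0.83 without disruption replicate 2 and 0.42 without starved replicate 2, whereas the rise of 4.80 over glucose-grown wild type did.

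SPCC191.10, annotated as the gene next to inv1, was the other starvation gene called above the starved level. The study describes it as a promoter element of inv1, so it may not be a separate case. It had 28, 6.76, 4.59 and 5.14 CPM in the mutants, against 3.22 and 0.175 CPM in starved wild type. Its log2 fold change of 2.14 (adjusted p = 0.0118) lost its call without starved replicate 2 (1.15), and its feature shares 909 bases with SPNCRNA.1223 on the opposite strand.

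Other raised genes stopped part of the way. gld1 (SPAC13F5.03c, chrI:2174641-2177050, minus strand), the glycerol dehydrogenase gene, had 144.9, 99.1, 164.8 and 141.3 CPM in the mutants, against 1870 and 922.2 CPM in starved wild type and 4.54 and 2.12 CPM in glucose-grown wild type. The mutants formed a group of their own between the wild types, 5.21 above glucose on the log2 scale (adjusted p = 0.000231) and -3.43 ± 0.42 from starvation (SE, adjusted p = 1.89e-05). ght3, which encodes a gluconate transporter of the hexose transporter family, had 91.1, 111, 110.3 and 96.2 CPM in the mutants, against 759.3 and 786.7 CPM in starved wild type and 5.36 and 4.42 CPM in glucose-grown wild type. rsv1, a zinc finger factor gene needed to survive glucose starvation, had 16.2, 10.5, 14.7 and 14 CPM in the mutants, against 63.6 and 37.2 CPM in starved wild type and 0.869 and 0.287 CPM in glucose-grown wild type. Neither gene overlapped between any of the groups. Their log2 fold changes against starved cells were -2.90 (adjusted p = 1.68e-08) for ght3 and -2.04 (adjusted p = 4.79e-05) for rsv1. mug108 was the most extreme of this kind, with 50.3, 19.1, 27.1 and 25.3 CPM in the mutants, against 4187 and 5279 CPM in starved wild type and 1.84 and 2.12 CPM in glucose-grown wild type. Its rise of 3.90 over glucose-grown wild type still left it at -7.62 from starved cells, both on the log2 scale, and its feature lies wholly inside rga3 on the opposite strand (1090 shared bases).

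Upstream sequence is shown for both kinds of gene, because Scr1 and Rst2 are DNA-binding proteins and the letters can be set beside the values above. The windows are the 300 bases before the gene start in RefSeq's ASM294v3 and hold no transcribed part of the gene itself. Letters in capitals are matches, on either strand, to the Scr1-type hexamers (the 8 hexamers that start with C or G, go on with C or T, then GG, then A or G, and end in G, the form bound by Mig1 and CreA) or to the Rst2-type hexamer CCCCTC, and no matches overlap in these windows. inv1 (chrIII:1723093-1723392, plus strand) and rsv1 (chrII:2888150-2888449, plus strand) were raised. fbp1 (chrII:199475-199774, minus strand), cta3 (chrII:606914-607213, plus strand) and mel1 (chrI:5499468-5499767, plus strand) were not.
inv1: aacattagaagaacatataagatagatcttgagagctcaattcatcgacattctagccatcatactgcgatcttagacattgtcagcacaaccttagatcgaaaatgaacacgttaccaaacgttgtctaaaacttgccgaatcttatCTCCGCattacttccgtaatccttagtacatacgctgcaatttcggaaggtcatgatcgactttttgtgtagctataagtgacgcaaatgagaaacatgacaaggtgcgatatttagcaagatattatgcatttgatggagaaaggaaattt
rsv1: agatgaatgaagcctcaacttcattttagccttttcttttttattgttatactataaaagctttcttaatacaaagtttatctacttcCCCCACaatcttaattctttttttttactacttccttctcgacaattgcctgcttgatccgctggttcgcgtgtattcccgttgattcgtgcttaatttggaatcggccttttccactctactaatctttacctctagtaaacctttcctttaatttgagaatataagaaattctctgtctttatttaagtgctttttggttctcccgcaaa
fbp1: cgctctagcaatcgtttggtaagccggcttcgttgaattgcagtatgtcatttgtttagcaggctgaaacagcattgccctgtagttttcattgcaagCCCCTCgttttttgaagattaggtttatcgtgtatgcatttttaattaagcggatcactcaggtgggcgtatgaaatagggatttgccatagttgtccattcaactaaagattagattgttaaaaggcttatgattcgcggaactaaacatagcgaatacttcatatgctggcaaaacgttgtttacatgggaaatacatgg
cta3: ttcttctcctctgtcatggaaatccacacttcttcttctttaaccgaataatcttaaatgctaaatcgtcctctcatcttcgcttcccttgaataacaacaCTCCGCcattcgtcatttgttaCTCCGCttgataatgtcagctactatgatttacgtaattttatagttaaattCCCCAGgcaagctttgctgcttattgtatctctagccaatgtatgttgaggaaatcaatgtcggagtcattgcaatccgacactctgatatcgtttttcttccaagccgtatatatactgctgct
mel1: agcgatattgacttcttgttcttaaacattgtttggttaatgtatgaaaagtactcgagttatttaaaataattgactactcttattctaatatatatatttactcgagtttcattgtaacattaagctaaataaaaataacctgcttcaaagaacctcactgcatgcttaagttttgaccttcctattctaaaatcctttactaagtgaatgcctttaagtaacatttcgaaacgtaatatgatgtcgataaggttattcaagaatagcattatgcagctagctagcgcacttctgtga
Both raised genes had 1 Scr1-type match, 152 bases upstream in inv1 and 212 bases upstream in rsv1. Within the 300 bases, fbp1 had a Rst2-type match 202 bases upstream and no Scr1-type match, and mel1 had neither. cta3, which stayed off, had 3 Scr1-type matches. Within 1000 bases, inv1, rsv1, fbp1 and mel1 each had 1 Scr1-type match, so in Scr1-type matches these 4 genes differed only in the shorter window. Of the 4, only fbp1 had a Rst2-type match within 1000 bases. Some other named raised genes held Scr1-type matches within 300 bases, such as gld1 with 2, and others held none, such as ght5 and ght3.

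Across the genome, 56.5% of the 46 raised genes held a Scr1-type hexamer in that window, against 17.1% of the 620 genes that stayed off and had a window, and 15.3% of all 5103 protein-coding genes with one. The Rst2-type hexamer was held by 19.6% of raised genes, 1.29% of genes that stayed off and 1.76% of all genes. ACGTCA, the core of the cAMP response element bound by Atf1 and Pcr1, was held by 21.7% of raised genes, 10.8% of genes that stayed off and 5.33% of all genes. The genes that stayed off were thus close to all genes for the Scr1-type and Rst2-type hexamers, and their share was above that of all genes for ACGTCA. The sequence CCAAT, which the Php complex binds, was held by 45.7%, 38.1% and 40.6% of raised genes, genes that stayed off and all genes. In windows of 1000 bases the Scr1-type shares were 91.3%, 53.7% and 51.2%. These are counts of letters and were not tested.

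**Figure D3:**
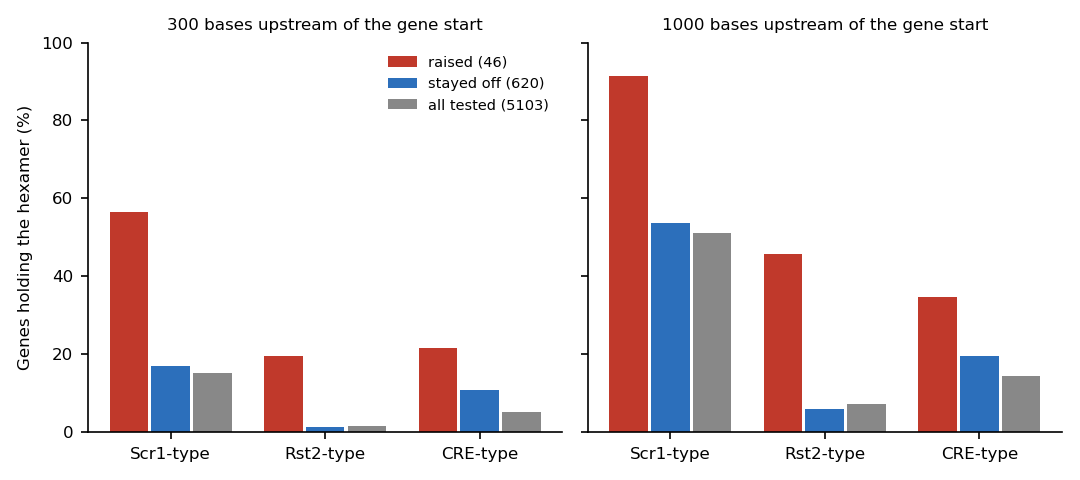
Share of genes (%) with at least 1 match on either strand to the 8 Scr1-type hexamers, the Rst2-type hexamer CCCCTC or ACGTCA (CRE-type), in the 300 or 1000 bases upstream of the gene start, for 46 raised genes, 620 genes that stayed off and all 5103 tested genes with a window. Raised genes hold the Scr1-type hexamers most often, 56.5% within 300 bases against 17.1% of genes that stayed off.

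The study's ChIP-seq on other samples gave gene lists for chromatin binding, and these were laid over the classes as a description. Over all 5134 tested protein-coding genes, 0.896% were raised and 12.1% stayed off. Of the 115 tested genes listed as bound by Scr1 in glucose, 25 were raised (21.7% of the list and 54.3% of the raised genes) and 16 stayed off (13.9% of the list and 2.57% of the genes that stayed off). Of 321 genes bound by Rst2 in starved cells, 32 were raised (9.97% of the list and 69.6% of the raised genes) and 62 stayed off (19.3% of the list and 9.97% of the genes that stayed off). For 236 genes bound by the co-repressor Tup11 in glucose, 28 were raised (11.9% of the list and 60.9% of the raised genes) and 41 stayed off (17.4% of the list and 6.59% of the genes that stayed off). 13 of the 46 raised genes (28.3%) lay next to another raised gene, such as ght5 beside SPCC1235.18 and SPCC1235.17, and inv1 beside SPCC191.10. The like share was 28.5% among genes that stayed off and 44.7% among all starvation genes. These sets differ in size, some of the neighbours overlap, and clustering was not tested.

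Sugar transport and breakdown divided between the classes gene by gene. All 8 hexose transporter genes (ght1 to ght8) rose in starvation. In the mutants 4 of them, ght5, ght3, ght4 and ght1, were called higher than in glucose-grown wild type, 1 (ght2) stayed off, and 5 were called lower than in starved cells, with a median log2 fold change of -1.44 against starved cells. ght2 had 253.7, 281.5, 320.6 and 310.3 CPM in the mutants, against 904.4 and 1323 CPM in starved wild type and 156.2 and 261.7 CPM in glucose-grown wild type. ght6 was uncertain, at 79.7, 35.1, 37.5 and 74.8 CPM in the mutants, against 225.7 and 671 CPM in starved wild type and 19.4 and 0.688 CPM in glucose-grown wild type. Of the 7 genes for disaccharide and galactose use, 4 were called higher than in glucose-grown wild type. They were inv1 and the Leloir pathway genes gal1, gal7 and gal10, with rises of 2.53 for gal1 and 3.86 for gal10 over glucose on the log2 scale. The alpha-galactosidase gene mel1 and the sucrose and maltose transporter gene sut1 stayed off, and sut1 had a log2 fold change of -4.52 against starved cells (adjusted p = 6.67e-09). The Leloir genes were thus higher, and mel1 was not called, in the same 4 libraries. gal1 was not called in starved wild type over glucose, so it is not counted among the raised starvation genes.

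Among 7 glycerol genes, 5 were called lower in the mutants than in starved cells and only gld1 was called higher than in glucose-grown wild type. dak2, a dihydroxyacetone kinase gene one step further along the route, stayed off, with 20.2, 5.32, 5.83 and 10.3 CPM in the mutants, against 424.4 and 120.9 CPM in starved wild type and 40.8 and 26.9 CPM in glucose-grown wild type. gut2, the mitochondrial glycerol-3-phosphate dehydrogenase gene, was not called over glucose (log2 fold change 2.13, adjusted p = 0.2) and had a value of -3.14 against starved cells (adjusted p = 0.00274). In the gluconate and pentose phosphate group, 3 of 6 genes were called higher than in glucose-grown wild type. These were gcd1, the glucose dehydrogenase gene of the gluconate route, idn1, a gluconate kinase gene, and gnd1, which encodes 6-phosphogluconate dehydrogenase. idn1 reached 316.1, 454.2, 381.9 and 311.4 CPM in the mutants, against 386 and 394.8 CPM in starved wild type, a log2 fold change of -0.02 (95% interval -0.31 to 0.27).

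Of 16 genes of the tricarboxylic acid (TCA) cycle, 7 were called lower than in starved cells and the other 9 were not called, with a median log2 fold change of -0.87. 2 of them were raised over glucose, mdh1 (malate dehydrogenase) and cit1 (citrate synthase). mdh1 had 402.3, 447.4, 452.8 and 475.5 CPM in the mutants, against 2454 and 2892 CPM in starved wild type and 108.8 and 116.2 CPM in glucose-grown wild type. 4 others, the aconitase gene aco1, kgd1 of 2-oxoglutarate dehydrogenase, lsc2 of succinyl-CoA ligase and sdh2 of succinate dehydrogenase, stayed off. Their log2 fold changes over glucose-grown wild type were 0.49, 0.28, 0.34 and 0.13. The 40 genes of the respiratory chain and ATP synthase had 2 called higher and 4 called lower against starved cells and a median of -0.38.

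Stress genes were mostly lower in the mutants than in starved cells. Of 21 genes of the environmental stress response, 17 were called lower in the mutants than in starved cells and 2 (9.52%) were called higher, and the median log2 fold change was -2.86. 16 of the 21 were starvation genes. Of these, 11 stayed off, beside 67.8% of all starvation genes, and the other 5 were lower than in starved cells with wider bounds over glucose. They included pyp2, the phosphatase that acts on Sty1, at 53.7, 13, 19.7 and 18.7 CPM in the mutants, against 889.8 and 1017 CPM in starved wild type. gpx1 (glutathione peroxidase) and ntp1 (trehalase) were likewise lower, by -4.13 and -3.94 on the log2 scale. atf1 and pcr1, which encode the factor pair of this response, were at -2.39 and -2.86 and also stayed off. The 2 called higher were trx1, a thioredoxin gene, at 1.11 on the log2 scale (adjusted p = 0.000199), and gst1, a glutathione transferase gene. gst1 had 12.3, 11.1, 8.45 and 8.19 CPM in the mutants, against 1.54 and 1.49 CPM in starved wild type. The small heat shock gene hsp9 had 993.5, 1216, 1261 and 1579 CPM in the mutants, against 25063 and 55662 CPM in starved wild type and 383 and 400 CPM in glucose-grown wild type, and its value of 1.33 over glucose was not called (adjusted p = 0.0643).

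Autophagy genes stayed off almost as a group. 20 of 29 were called lower than in starved cells (69.0%), the other 9 were not called, and the median log2 fold change was -1.52. Of the 19 that rose in starvation, 18 stayed off, beside 67.8% of all starvation genes. atg8, the ubiquitin-like protein of the autophagosome membrane, had 31.6, 39.4, 36.9 and 32.6 CPM in the mutants, against 140.8 and 292.6 CPM in starved wild type and 25 and 29.7 CPM in glucose-grown wild type. The kinase gene atg1 was at -2.02 and the scaffold gene atg13 at -2.75 on the log2 scale against starved cells. The exception was atg1803, at -0.92 against starved cells and 0.18 over glucose-grown wild type, which met no class. Of 10 core histone genes, 6 rose in starvation and 5 of these stayed off, among them hht2 at -2.40 against starved cells.

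Among 14 regulators of the carbon response, 7 were called lower than in starved cells and the other 7 were not called. 5 stayed off and 2 were raised, rsv1 and the scr1 feature itself. rst2, the gene of the activator, had 161.3, 125.8, 172.2 and 182.9 CPM in the mutants, against 404.9 and 491.5 CPM in starved wild type and 82.7 and 93.9 CPM in glucose-grown wild type. Its groups did not overlap, and it was called lower than in starved cells (-1.52, adjusted p = 1.08e-06) but not called over glucose, where its value of 0.70 was under the fold threshold (adjusted p = 0.0202). rsv2, a paralogue of rsv1, had 70, 27.9, 38.9 and 38.6 CPM in the mutants, against 1136 and 1455 CPM in starved wild type, and it stayed off. In the cAMP pathway, pka1, the catalytic subunit gene of protein kinase A, had 80.2, 87.9, 85.4 and 77.8 CPM in the mutants, against 728.6 and 764.8 CPM in starved wild type, and likewise stayed off. Its regulatory subunit gene cgs1 was at -3.33 against starved cells. Only cgs2, the phosphodiesterase that removes cAMP, was raised, with 65, 68.4, 63.9 and 68.8 CPM in the mutants, against 87.7 and 67.8 CPM in starved wild type and 26.9 and 32.3 CPM in glucose-grown wild type. ssp2, the AMP-activated kinase gene, stayed off at -1.43 against starved cells.

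**Figure D4:**
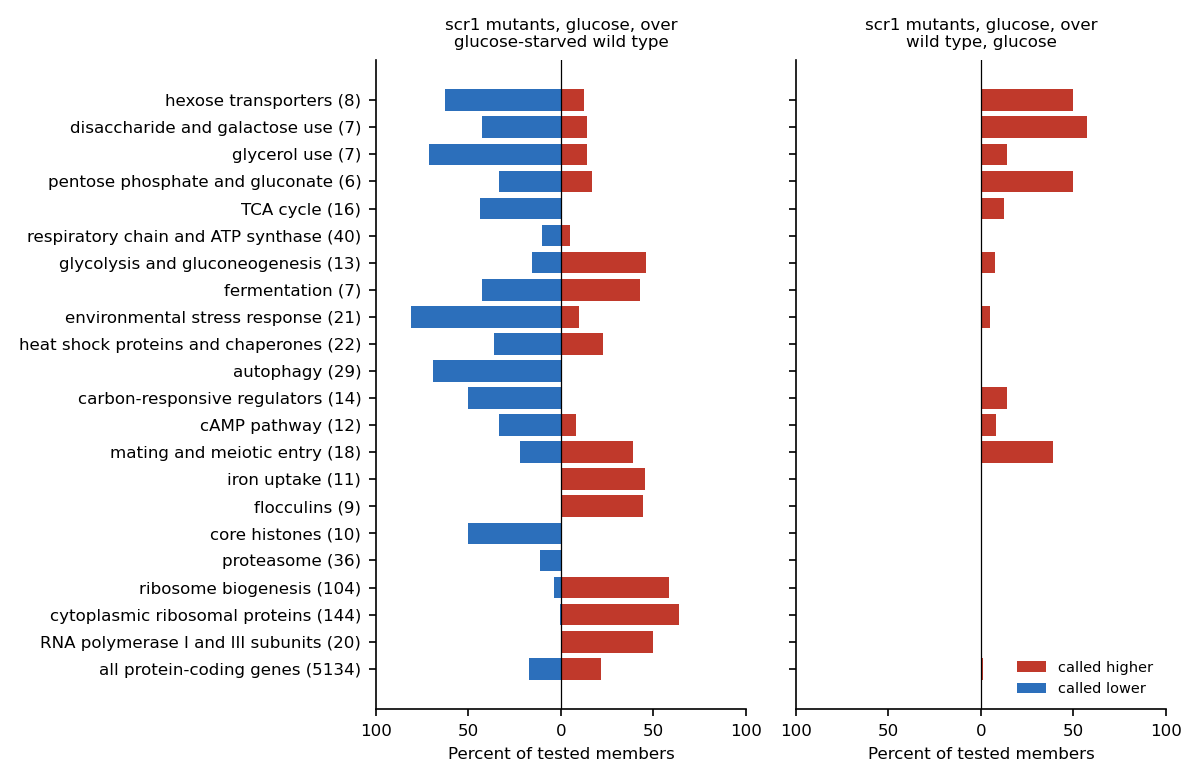
Share of the tested members (%) of each gene group called higher (right of 0) or lower (left of 0) in scr1- cells in glucose over starved wild type (left panel) and over glucose-grown wild type (right panel), with the number of tested members in brackets and all 5134 protein-coding genes at the bottom. Stress and autophagy genes are mostly lower on the left, 17 of 21 and 20 of 29, and hardly present on the right, while sugar uptake and use are present in both.

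15 genes were called higher in the mutants than in both wild types, and 2 of them, ght5 and SPCC191.10, were starvation genes. Of the 62 genes called higher than in glucose-grown wild type, 46 were starvation genes and 16 were not. 5 of the 15 are mating and meiosis genes. mei2 (SPAC27D7.03c, chrI:4510983-4515015, minus strand), the RNA-binding protein that drives entry into meiosis, had 128.1, 113.2, 188.5 and 152.7 CPM in the mutants, against 14.5 and 10.8 CPM in starved wild type and 17.6 and 13.5 CPM in glucose-grown wild type. Its log2 fold change was 3.35 ± 0.30 against starved cells (SE, adjusted p = 1.51e-06), and starvation moved it by -0.24 (adjusted p = 0.515). ste11, the HMG-box factor gene of sexual development, had 76.2, 97.3, 106 and 100 CPM in the mutants, against 44.6 and 38.6 CPM in starved wild type and 31 and 29.1 CPM in glucose-grown wild type. Its value of 1.16 fell below the fold threshold without disruption replicate 2 (0.83) or starved replicate 2 (0.87). spk1, the pheromone pathway kinase gene, map1, the MADS-box gene of P cells, and rgs1, a regulator of pheromone receptor signalling, were also in this set, at 1.36, 2.30 and 3.14 against starved cells. Over the whole mating and meiotic entry list, 7 of 18 (38.9%) were called higher and 4 (22.2%) lower than in starved cells, with a median of 0.33. Over all tested genes these shares were 21.8% and 17.1%. The M-cell genes have to be read with the low values of disruption replicate 2 beside them, and 4 of 6 were called higher than in starved cells. hxk2, a hexokinase gene, was higher than in both wild types as well, with 2355, 2485, 2274 and 2334 CPM in the mutants, against 1220 and 308.2 CPM in starved wild type and 878.4 and 773.3 CPM in glucose-grown wild type.

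Most genes called higher in the mutants than in starved cells were those that starvation had lowered. Of the 1090 genes lower in starved than in glucose-grown wild type, 964 were called higher in the mutants than in starved cells and 4 were called lower in the mutants than in glucose-grown wild type. The growth machinery was among them. Of 144 cytoplasmic ribosomal protein genes, 92 (63.9%) were called higher and 1 lower, with a median of 1.26, and of 104 ribosome biogenesis genes, 61 (58.7%) were called higher and 4 lower, with a median of 1.16. 10 of 20 RNA polymerase I and III subunit genes were called higher. Over glucose-grown wild type the medians of these 3 groups were 0.18, -0.23 and -0.21. The ribosomal protein medians differed between batches, 2.11 within batch B and 0.69 within batch C. Fermentation genes divided, with pdc101, the pyruvate decarboxylase gene, at 3.33 and its paralogue pdc201 at -7.25 against starved cells.

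Some iron uptake and flocculin genes were also among those higher than in starved cells. fip1, the iron permease gene, had 385.9, 222.4, 196.6 and 355 CPM in the mutants, against 14.9 and 3.33 CPM in starved wild type and 179.4 and 215.4 CPM in glucose-grown wild type, a log2 fold change of 4.91 ± 0.59 against starved cells (SE, adjusted p = 1.7e-05). str3, a transporter gene of the siderophore family, and frp1, a ferric reductase gene, were at 6.09 and 4.39. 5 of 11 iron uptake genes (45.5%) were called higher than in starved cells, beside 21.8% of all tested genes, and the other 6 were not called. The flocculin genes pfl7 and pfl8 were at 4.08 and 3.88. Of 9 flocculin genes, 4 were called higher than in starved cells and the other 5 were not called, with a median of 0.71. hsp90, the chaperone gene, had 2736, 4967, 4029 and 3693 CPM in the mutants, against 266 and 271 CPM in starved wild type, whereas ssa1, an Hsp70 gene, went the other way, with 217.6, 167.1, 187.1 and 137.8 CPM in the mutants, against 1969 and 549.5 CPM. Among called genes whose libraries did not overlap and whose direction was the same in both batches, the first by fitted rise was gnr1, a G-protein beta subunit gene, with 31.8, 3.81, 5.04 and 5.76 CPM in the mutants, against 0.067 and 0 CPM in starved wild type. The starved libraries held 1 and 0 counts of it, under the 3 counts taken as the detection floor, so no fold is given, and its antisense RNA SPNCRNA.1158 shares 1546 bases with it.

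The comparison was also read within single batches. The starved libraries of the fit are those of batches B and C, so the call itself largely fixes the sign of a called gene in each batch. Of the 1118 genes called higher, 1117 were also higher within batch B and 1117 within batch C, and of the 879 called lower, 877 and 875 were also lower. Among all tested protein-coding genes, 1921 had all 4 mutants above both starved libraries (37.4%) and 1454 had all 4 below (28.3%). Of the called genes, 1107 higher and 802 lower met this and had the same direction in both batches. As a check that does not share libraries, 374 genes with at least 10 counts were chosen in batch B for standing 2 or more higher on the log2 scale in starved than in glucose-grown wild type. In batch C, which took no part in the choice, 353 of them were lower in the deletions than in starved wild type, and 323 (86.4%) by 1 or more, beside 19.5% of 5066 genes with that many counts. Their median difference was -2.60, beside 0.08. The 21 that were not lower there were headed by SPCC191.10 (4.05), gal10 (3.87), mug114 (2.63), ght5 (1.75), plb1 (1.69) and ght1 (1.68). plb1, a phospholipase B gene, had 11585, 10520, 12969 and 12756 CPM in the mutants, against 8461 and 3983 CPM in starved wild type and 1493 and 1252 CPM in glucose-grown wild type.

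**Figure D5:**
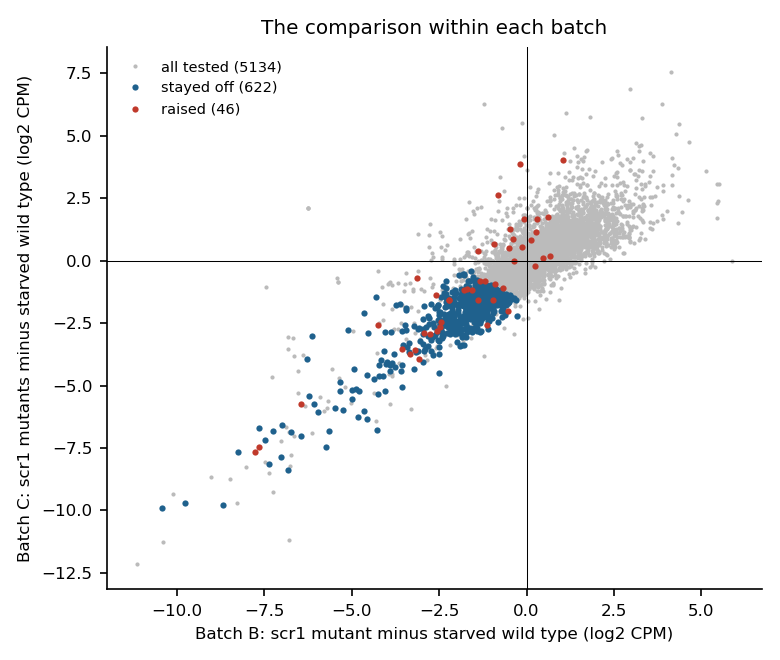
Difference in log2 CPM between scr1- cells in glucose and starved wild type for all 5134 tested protein-coding genes, from disruption replicate 2 and starved replicate 1 in batch B (x axis) and from both deletions and starved replicate 2 in batch C (y axis). The 622 genes that stayed off lie at the lower left, and 2 of the 46 raised genes stand highest of those classes on the y axis, SPCC191.10 at 4.05 and gal10 at 3.87.

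Non-coding features were counted too. 229 of the 1557 tested (14.7%) were called higher in the mutants than in starved cells and 547 (35.1%) were called lower, beside 23 higher (1.48%) and 33 lower (2.12%) against glucose-grown wild type. They took 9.64% of all counts in the unstranded library and 2.19% to 4.89% in the stranded ones, and without the batch term the counts were 124 higher and 266 lower. In the unstranded library a feature and its antisense partner cannot be told apart.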

How the data were processed

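Total RNA was extracted with hot phenol, depleted of ribosomal RNA and sequenced. The authors deposited raw read counts per feature for 16 libraries. Per the submitters' processing notes the tools were CASAVA 1.8.4, cutadapt 1.9.1, TopHat2 2.1.1, featureCounts 1.5.2 and DESeq2 1.12.3, with alignment to ASM294v2.25. Reads mapped to several places or overlapping several features were counted for each, so near-identical paralogues and overlapping genes share reads.

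From these counts, edgeR 4.0.16 in R 4.3.3 fitted a quasi-likelihood model over all 16 libraries in 6 groups with batch as a term (8 residual degrees of freedom). TMM scaling and a minimum count of 10 left 6691 of 7019 features, 5134 of them protein-coding by identifier (a few pseudogenes included). Disruption and deletion libraries were pooled, as in the study. p-values were adjusted by Benjamini-Hochberg over all tested features. The script was tested on simulated data. The lists and members were chosen with earlier results of these data known.

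Genes were named if among the 12 largest rises or falls called with libraries that did not overlap and 1 direction in both batches, the 12 starvation genes that stayed off with the highest starvation rise, the 12 raised genes with the largest rise over glucose, as list examples, or as fbp1, inv1, gld1, ght5, ste11, mei2 and scr1. Upstream windows came from RefSeq ASM294v3, in which 97.8% of 5351 internal exon starts were identical to those of the count table. Bound genes came from the study's ChIP tables. Alternatives covered scaling, filter, batch, replicate block, alleles, library subsets, thresholds, DESeq2 1.42.0 and leaving out each library. Library totals were 14305848 to 18607823 counts, and 3 counts were 0.175 to 0.21 CPM in the 6 libraries, a floor that covers counting error only.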

Additional observations from a re-analysis of the deposited data

Results flagged for a closer look

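48 named genes were examined for a mutant library far from the other 3, and for a difference between the alleles. A single library stood apart in 4 genes, where chance alone flags about 1 in 20. Disruption replicate 1, the unstranded mutant library, was the high one in 3 of them, with 13.8 CPM for atf21, 10.5 CPM for SPAPB1A11.03 and 105.7 CPM for mug114. Glucose-grown wild type in the same unstranded batch had 15.6 CPM for atf21 and 16.2 CPM for SPAPB1A11.03 but 1.93 CPM for mug114, and all 3 features overlap another on the opposite strand, mug114 by 691 bases with hxk2. The part of strandedness was not tested. SPBC1289.14 was low in disruption replicate 2 at 0.0719 CPM, under the 3-count floor.

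The edgeR contrast between the alleles, which carries the batch term, flagged 4 genes. The log2 fold change of deletion over disruption was 2.24 for gnr1, -4.04 for hry1, -1.40 for SPCPB16A4.06c and -1.75 for SPCC16A11.15c. In CPM, SPCC16A11.15c had 20.1 and 20.6 in the disruptions and 17.4 and 19.5 in the deletions. hry1 had 0.235 and 1.08 against 0.655 and 0.417, and gnr1 had 31.8 and 3.81 against 5.04 and 5.76. The deletions of SPCPB16A4.06c, at 7.86 and 9.58 CPM, lay below both disruptions. For SPCC16A11.15c and hry1 the libraries thus differed less than the fitted values. Starved wild type had 1099 (batch B) and 3262 CPM (batch C) for SPCC16A11.15c, and 133.9 and 1515 CPM for hry1. The deletions were made only in batch C and the disruptions only in batches A and B, so allele and batch are separated only through the other libraries of the fit. The part of the starved libraries in the fitted allele values was not tested.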

How the results depend on the processing

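Over the settings, 1870 values of named genes kept their side of the threshold, 41 lost the call and 9 gained it. Of the counts over all genes, 118 stayed within 1.5 times. The tally of named genes follows the call and not the sign. Against starved cells, the uncalled differences of inv1, mug114 and scr1 had opposite signs in batches B and C. Without the batch term the non-coding counts were 124 higher and 266 lower and the raised genes 29, and with stranded libraries alone the raised genes were 22. With no fold minimum the counts were 2021 higher, 1650 lower, 1572 starvation genes and 1240 that stayed off. Past a log2 fold change of 2 they were 266 higher, 341 lower, 84 and 325 non-coding, 408 starvation genes and 198 that stayed off. The cause of these shifts was not tested beyond the thresholds themselves. Leaving out each library in turn gave 819 to 1193 higher and 836 to 1119 lower coding genes, 179 to 254 and 468 to 591 non-coding features, 868 to 1122 starvation genes, 589 to 811 that stayed off and 38 to 52 raised. The replicate numbers do not pair the samples: deviations of replicate 1 correlated at 0.28 between disruption and starved libraries and at -0.05 between deletion and starved ones, and the replicate block in place of batch gave 1091 higher, 826 lower, 307 non-coding lower, 924 starvation genes, 555 that stayed off and 36 raised. ght4 sat at the fold threshold against starved cells, and its call was lost without starved replicate 1 (-0.81), as was that of gcd1 (-0.73). With 2 starved libraries, genes whose starved values lie far apart, such as inv1, have wide intervals.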
